A study of Mus musculus with 8 samples.

Results

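Long noncoding RNAs (lncRNAs) that are known for staying in the nucleus, or that are transcribed from imprinted regions, were followed through an immunoprecipitation of DCP1A from mouse ovary. The set was defined by name and function, with earlier results of these data known, and comprised Malat1, Neat1, Kcnq1ot1, Meg3, Rian, Mirg, H19, Airn and Peg13. All 9 had a row among the 23107 genes of the table, and all 9 passed the filter on low counts that left 14667 genes for testing. Mirg passed it through the RIP libraries, where its counts were higher. Airn, with 6 and 0 counts in input 1 and 2, also passed it only with RIP libraries. DCP1A is a decapping co-activator of cytoplasmic processing bodies, and the study asked which RNAs associate with it in the primary oocyte.

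The tissue was cortex of the ovary at postnatal day 8, and 2 groups of 4 libraries were compared. Input libraries hold RNA of the tissue before precipitation, and RIP (RNA immunoprecipitation) libraries hold RNA recovered with an antibody against DCP1A. Both groups carry the same untreated tissue as far as the labels say. The labels name no strain or genotype, nor do they say whether a library came from 1 animal or a pool. The p-values therefore reflect spread among these libraries, which may be technical. A control antibody's precipitate was not analysed here, so specific and nonspecific recovery cannot be told apart. Libraries held 13098154 to 25757620 estimated counts, input 1 and 2 being the shallowest. All 12 oocyte markers and all 10 granulosa cell markers on the lists had counts. The oocyte markers summed to between 1851 and 2603 CPM (counts scaled to a common library size) in input and between 1602 and 2211 CPM in RIP, and the granulosa markers to between 1679 and 3007 and between 1814 and 2620 CPM. Markers of stroma summed to between 4321 and 6707 CPM in input and between 4410 and 8077 CPM in RIP, those of immune cells to between 20.4 and 53.5 and between 36.9 and 48.4 CPM, and those of red blood cells to between 59.3 and 307 and between 85.2 and 172 CPM. Markers of the surface epithelium summed to between 227 and 313 CPM in input and between 244 and 393 CPM in RIP. Of 9 stroma markers tested, 3 had a lower level in RIP at an unadjusted p under 0.05 and 0 a higher one, namely Dcn (log2 fold change of RIP over input -0.81), Nr2f2 (-0.69) and Ogn (-1.67). The immune marker Csf1r (0.84), the epithelium marker Krt8 (0.67) and the granulosa marker Kitl (-0.63) also had an unadjusted p under 0.05, and 0 markers passed an adjusted p of 0.05 by edgeR. Of all genes tested, 4.28% were lower and 3.15% higher at an unadjusted p under 0.05. Median log2 fold changes were -0.07 for stroma, 0.36 for immune, 0.34 for epithelium and -0.007 for granulosa markers. They were -0.09 for oocyte, -0.60 for red blood cell, 0.035 for theca and muscle and -0.06 for endothelial markers. Above 0 were 4 of 9 stroma, 5 of 7 immune, 5 of 7 epithelium and 4 of 10 granulosa markers tested. So were 5 of 12 oocyte, 0 of 2 red blood cell, 4 of 7 theca and muscle and 3 of 8 endothelial markers. The part of these markers in the results was not tested. In such bulk samples, fewer cells of a type and less RNA per cell cannot be told apart.

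Malat1 is an abundant, unspliced RNA of nuclear speckles, and Neat1 is the RNA scaffold around which paraspeckles form. The other members come from imprinted regions, where some genes are transcribed only from the copy inherited from one parent. Kcnq1ot1 and Airn are long transcripts that run antisense to a coding gene and silence neighbouring genes on the same chromosome. Meg3, Rian and Mirg lie in a row in the Dlk1-Dio3 region and are expressed from the maternal copy, with small RNAs processed from the 3 of them. H19 is also maternally expressed, shares enhancers with Igf2 and is the host of a miRNA. Peg13 is paternally expressed from an intron of Trappc9.

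A sequence is shown first for the member with the lowest p of the 9, Kcnq1ot1. It is the RefSeq promoter on GRCm38.p6 (the patch release of mm10), chr7:143296498-143296797 on the minus strand, 250 bases before the start and 50 after it. Capitals mark CCAAT, searched on both strands as CCAAT and ATTGG.
Kcnq1ot1 promoter: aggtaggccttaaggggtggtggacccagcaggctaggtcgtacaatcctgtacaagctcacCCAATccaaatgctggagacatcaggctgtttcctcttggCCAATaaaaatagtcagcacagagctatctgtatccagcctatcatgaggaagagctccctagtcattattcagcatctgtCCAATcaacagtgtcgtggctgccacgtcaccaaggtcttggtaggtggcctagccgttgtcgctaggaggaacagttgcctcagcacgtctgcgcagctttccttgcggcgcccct

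The window held 3 copies of CCAAT and 0 of ATTGG. At least 3 copies on either strand stood in 3.37% of the 32851 promoters of the table, and at least 1 in 37.4%. Of the 6 members with an entry there, Meg3 at its first start and Mirg held 1 copy, and Rian, Airn and Malat1 held 0. These matches describe the letters of the windows alone.

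Mature miRNAs are shown because 4 members are their hosts. RefSeq placed 16 hairpins inside Meg3, Rian, Mirg and H19, 10 of them in Mirg, with 30 mature sequences and 29 distinct seeds. One or 2 per host are printed 5′ to 3′ with the seed, bases 2 to 8, in capitals. The pair that shares a seed, miR-453 and miR-496a-5p, lies in Mirg.
miR-675-5p (H19): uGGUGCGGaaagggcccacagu
miR-770-3p (Meg3): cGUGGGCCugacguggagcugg
miR-370-3p (Rian): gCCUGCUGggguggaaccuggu
miR-453 (Mirg): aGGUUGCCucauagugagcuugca
miR-496a-5p (Mirg): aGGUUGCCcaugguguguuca

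Of these 16 hairpin rows, 12 had 0 counts in all 8 libraries, and the 16 together held 7 counts. No level could be read from the hairpin rows at this depth, in input or in RIP.

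In the fit without a block, no member passed the test between RIP and input. In the quasi-likelihood fit of edgeR, 0 of 9 passed a Benjamini-Hochberg adjusted p of 0.05, where 0.0409% of all genes tested did. DESeq2 and limma voom with sample weights also called 0 of the 9, with 0.384% and 0.0477% of all genes called. At an unadjusted p under 0.05, 1 of 9 was higher in RIP and 0 lower, beside 3.15% and 4.28% of all genes (7.43% in either direction). The groups did not overlap for 1 of 9, higher in RIP, and for 0 lower, beside 2.77% and 2.52% of all genes (5.29% in either direction). That member was Mirg, which passed the filter on low counts through RIP. Fold changes, given as log2 of RIP over input, were above 0 for 6 members, Mirg and Airn among them, and below 0 for 3. Their median was 0.27, beside -0.02 over all 14667 genes tested and 0.19 over the 598 tested genes annotated as lncRNA. The members' median was 0.14 without RIP 1 and within libraries 3 and 4, and 0.45 within libraries 1 and 2. Adjusted p-values of the members lay between 0.622 and 0.958.

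**Figure D1:**
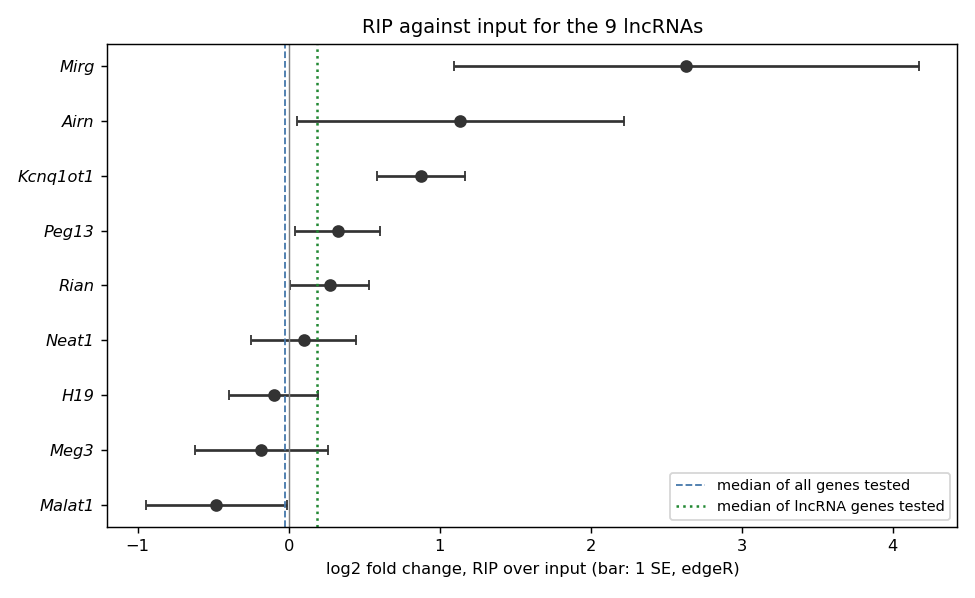
Log2 fold change of RIP over input for each of the 9 lncRNAs (points) with 1 standard error (bars), by edgeR. Mirg (2.63) and Airn (1.14) have the highest values and the widest bars, Kcnq1ot1 (0.88) follows with a narrow one, and the dashed and dotted lines mark the medians of all genes (-0.02) and of lncRNA genes (0.19).

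Kcnq1ot1 was the member with the lowest p. It silences genes of the Kcnq1 region on the paternal chromosome and has an annotated span of 83437 bp (chromosome 7, 143213111 to 143296547). Its levels in input 1 to 4 were 285, 178, 220 and 449 CPM, scaled by TMM, and in RIP 1 to 4 they were 479, 390, 652 and 561 CPM. RIP 1, 3 and 4 lay above every input library, and RIP 2 lay below input 4 alone, so the groups overlapped through that pair. The input mean was 283 ± 119 CPM and the RIP mean 520 ± 112 CPM (SD, n = 4 each), with a log2 fold change of 0.88 ± 0.29 (SE, unadjusted p = 0.00833, edgeR adjusted p = 0.622). The change was 0.90 ± 0.29 within libraries numbered 1 and 2 and 0.86 ± 0.35 within those numbered 3 and 4. With the library number as a block it was 0.94 ± 0.21 (edgeR adjusted p = 0.0453). Of all genes tested, 0.0886% were called higher in that fit. With libraries 1 and 2 against 3 and 4 as a block the adjusted p of Kcnq1ot1 was 0.0708 by edgeR, and DESeq2 without a block gave 0.226. By mean level Kcnq1ot1 ranked 353 of all genes of the table in input and 127 in RIP. With 1 single library left out at a time the value stayed between 0.71 and 1.20, the latter without input 4.

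Kcnq1, the potassium channel gene that Kcnq1ot1 overlaps in antisense, stood beside it with a similar difference. It had 46.0, 13.8, 18.6 and 43.2 CPM in input 1 to 4 and 60.9, 49.7, 42.1 and 43.4 CPM in RIP 1 to 4. The groups overlapped, at log2 0.69 ± 0.37 (edgeR adjusted p = 0.712). Whether the authors' counting used strand is not given, so reads of Kcnq1ot1 and of Kcnq1 introns cannot be told apart. Within each library Kcnq1ot1 exceeded Kcnq1 by 3.32 ± 0.48 on the log2 scale of counts in input and by 3.40 ± 0.50 in RIP. That ratio differed by 0.08 between the groups (exact two-sided permutation test, p = 0.914, adjusted p = 0.943 over 6 ratios). None of these 6 within-library ratios passed, and the smallest p that 4 against 4 libraries allow is 0.0286.

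Malat1 was the most abundant member and the one that varied most in absolute level. It spans 6983 bp (chromosome 19, 5795690 to 5802672) and is processed at its end into a small cytoplasmic RNA, which was not analysed here. Input 1 to 4 held 4792, 3155, 18714 and 7454 CPM, and RIP 1 to 4 held 3764, 4417, 7683 and 8626 CPM. Input 3 stood above all other libraries, and in both groups libraries 3 and 4 were higher than libraries 1 and 2. Malat1 ranked 6 by mean level in input and 3 in RIP. Means were 8529 ± 7017 and 6122 ± 2392 CPM (SD, n = 4 each), and the log2 fold change was -0.48 ± 0.47 (SE, edgeR adjusted p = 0.839). Without input 3 it was 0.26 ± 0.35, so its sign rested on that library.

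The share of counts in the 9 members followed Malat1, which made up between 73.5% and 95.8% of their counts in a library. The members together took 0.531%, 0.349%, 2.23% and 0.939% of the counts in input 1 to 4. In RIP 1 to 4 they took 0.425%, 0.534%, 0.944% and 1.098%. Wilson 95% intervals of these shares were at most 0.0057 percentage points wide to each side and cover counting error only. The input range thus enclosed the whole RIP range.

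Neat1, with an annotated span of 20773 bp (chromosome 19, 5824708 to 5845480), was steady in RIP and scattered in input. Its levels were 89.7, 39.4, 77.5 and 174 CPM in input 1 to 4 and 94.0, 90.0, 109 and 115 CPM in RIP 1 to 4. All RIP libraries fell inside the input range. Means were 95.1 ± 56.7 and 102 ± 12 CPM (SD, n = 4 each) and the log2 fold change 0.10 ± 0.35 (SE, edgeR adjusted p = 0.958). It was -0.16 without input 2, the lowest library. The log2 ratio of Neat1 to Malat1 counts was -6.35 ± 1.11 in input and -5.83 ± 0.43 in RIP, a difference of 0.52 (exact two-sided permutation test, p = 0.486, adjusted p = 0.771).

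**Figure D2:**
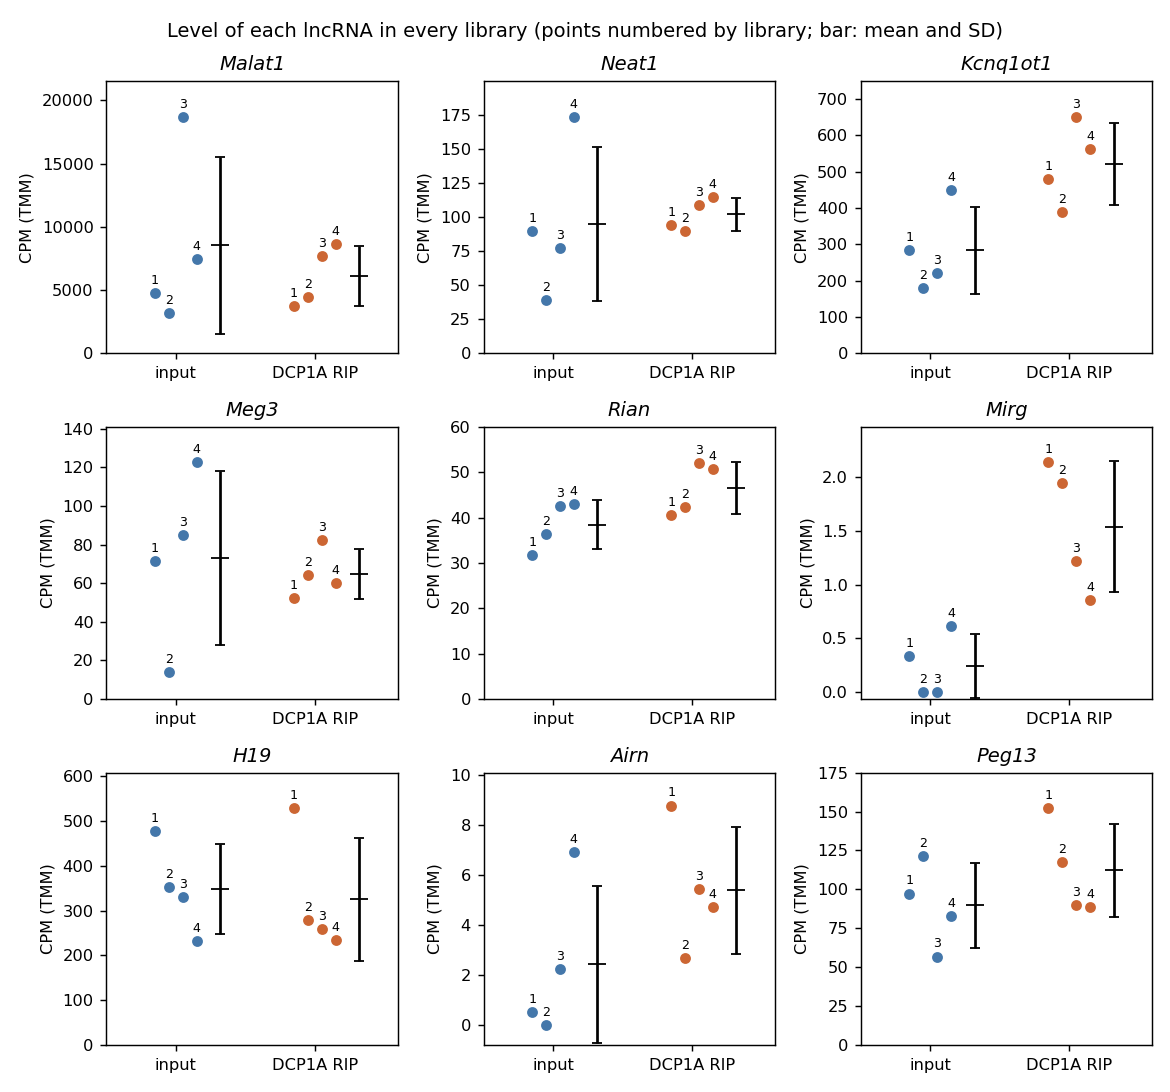
CPM (TMM-normalized, linear axes) of each lncRNA in the 4 input (blue) and 4 RIP (orange) libraries, points numbered by library, with the mean and SD as a black bar. Mirg alone has every RIP library (0.86 to 2.14 CPM) above every input library (0 to 0.62 CPM), and Malat1 in input 3 (18714 CPM) stands above all other libraries.

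In the Dlk1-Dio3 region the 3 lncRNA genes differed in level and in spread. Meg3, the first of the row (chromosome 12, 109540996 to 109571729), had 71.3, 13.8, 85.1 and 123 CPM in input 1 to 4 and 52.2, 64.1, 82.5 and 60.1 CPM in RIP 1 to 4. The RIP libraries lay inside the input range, which ran from input 2 to input 4 over 8.86-fold. Its log2 fold change was -0.18 ± 0.44 (edgeR adjusted p = 0.941) and 0.19 without input 4. Rian, the host of C/D box small nucleolar RNAs (109603945 to 109661716), was the least variable member in input, with 31.7, 36.4, 42.6 and 43.1 CPM in input 1 to 4. RIP 1 to 4 had 40.6, 42.5, 52.1 and 50.7 CPM, of which RIP 1 and 2 lay below input 3 and 4. The log2 fold change of Rian was 0.27 ± 0.26 (edgeR adjusted p = 0.836), and it kept its sign in each of the 24 alternative fits. Rtl1, a coding gene whose annotation overlaps those of Meg3 and Rian, had a log2 fold change of 0.195 ± 0.72 (edgeR adjusted p = 0.960). With the use of strand unknown, reads of Rtl1 and of these lncRNAs cannot be told apart in the overlaps.

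Mirg, the miRNA host at the far end of the row (109734981 to 109749458), was near the limit of detection. Its counts were 4, 0, 0 and 17 in input 1 to 4 and 29, 41, 26 and 18 in RIP 1 to 4. On the CPM scale input reached from 0 to 0.62 and RIP from 0.86 to 2.14, so the groups did not overlap. Of all genes tested, 2.77% had every RIP library above every input library, and of the tested lncRNA genes 3.34% did. The log2 fold change was 2.63 ± 1.54 (SE, n = 4 each, unadjusted p = 0.107, edgeR adjusted p = 0.736), a fitted value that rests on 21 input counts in all. It was 3.82 without input 4 and 2.22 without input 3.

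Of the small nucleolar RNA genes inside Rian, the table held 4 of 11, 1 of them at 0 in all libraries. AF357426 (109642838 to 109642904) had 80, 45, 13 and 45 counts in input 1 to 4 and 4, 8, 2 and 0 in RIP 1 to 4. In CPM it ran from 0.44 to 6.72 in input and from 0 to 0.38 in RIP, so the groups did not overlap. It was removed by the filter on low counts, and without that filter its edgeR log2 fold change was -3.99 ± 1.54 (unadjusted p = 0.0157, adjusted p = 0.559). The shares of tested genes without overlap therefore do not cover it. AF357425 and AF357355 were tested and overlapped between the groups, at -0.52 ± 1.34 and 0.32 ± 1.30, with standard errors that enclose the value of Rian. How reads were divided between Rian and these genes is not known, and AF357426 was singled out after its values were seen.

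H19, among the most abundant imprinted RNAs of fetal tissue (chromosome 7, 142575530 to 142578146), was close in the 2 groups with all libraries. Its levels were 478, 353, 330 and 232 CPM in input 1 to 4 and 529, 279, 258 and 235 CPM in RIP 1 to 4. Library 1 was the highest and library 4 the lowest in both groups. Means were 348 ± 101 and 325 ± 137 CPM (SD, n = 4 each), with a log2 fold change of -0.10 ± 0.30 (SE, edgeR adjusted p = 0.954). The sign turned without input 1 (0.09), RIP 3 (0.001) or RIP 4 (0.03). Without RIP 1, the highest library, the value was -0.43 ± 0.26. Igf2, the growth factor gene next to it, had 62.3, 83.7, 78.3 and 38.5 CPM in input 1 to 4 and 36.0, 37.2, 25.8 and 51.9 CPM in RIP 1 to 4. Only RIP 4 exceeded the lowest input library, input 4, and the log2 fold change of Igf2 was -0.80 ± 0.31 (unadjusted p = 0.0203, edgeR adjusted p = 0.622). The ratio of H19 to Igf2 differed by 0.65 on the log2 scale of counts (exact two-sided permutation test, p = 0.171, adjusted p = 0.514).

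Airn, which runs antisense to the receptor gene Igf2r over an annotated span of 118574 bp (chromosome 17, 12741311 to 12859884), was low and uneven in input. Its counts were 6, 0, 66 and 190 in input 1 to 4 and 119, 56, 116 and 99 in RIP 1 to 4. These correspond to 0.504, 0, 2.25 and 6.92 CPM and to 8.79, 2.67, 5.44 and 4.71 CPM. Input 4 exceeded RIP 2, 3 and 4, and input 1 to 3 lay below all RIP libraries. The log2 fold change was 1.14 ± 1.08 (SE, n = 4 each, edgeR adjusted p = 0.833). Libraries 1 and 2 alone gave 4.45 ± 2.12, libraries 3 and 4 alone 0.14 ± 0.76, and all but input 4 gave 2.50. Igf2r had 284 ± 105 CPM in the input group against 329 ± 15 CPM after precipitation (log2 0.21 ± 0.26, edgeR adjusted p = 0.873). Where the annotations overlap, reads of Airn and Igf2r cannot be told apart either. The same holds for Mas1, another coding gene that overlaps Airn. It had counts in 1 input and 3 RIP libraries (log2 1.32 ± 1.805, edgeR adjusted p = 0.887). The ratio of Airn to Igf2r was -8.45 ± 3.04 in input and -6.04 ± 0.71 in RIP (SD) on the log2 scale of counts. It differed by 2.40 (exact two-sided permutation test, p = 0.171, adjusted p = 0.514). In input 1 to 4 it was -8.94, -12.55, -6.34 and -5.96. The value of input 2 rests on the 0.5 added to 0 counts of Airn.

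Peg13 (chromosome 15, 72805602 to 72810324) had 97.3, 122, 56.8 and 82.7 CPM in input 1 to 4 and 152, 117, 90.2 and 88.6 CPM in RIP 1 to 4. RIP 1 was the highest of all 8 libraries, and the other RIP libraries lay inside the input range. Its log2 fold change was 0.32 ± 0.28 (SE, n = 4 each, edgeR adjusted p = 0.811). It was 0.14 without RIP 1, 0.16 without input 3 and 0.51 without input 2. Trappc9, the trafficking complex gene whose intron holds Peg13, had 157, 184, 126 and 167 CPM in input 1 to 4 and 203, 238, 261 and 212 CPM in RIP 1 to 4. Every RIP library of Trappc9 lay above every input library, as for 2.77% of all genes, at log2 0.53 ± 0.22 (unadjusted p = 0.0303, edgeR adjusted p = 0.627). With the use of strand unknown, reads of Peg13 and of the Trappc9 intron cannot be told apart. The ratio of Peg13 to Trappc9 differed by -0.19 between RIP and input on the log2 scale of counts (exact two-sided permutation test, p = 0.514, adjusted p = 0.771).

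**Figure D3:**
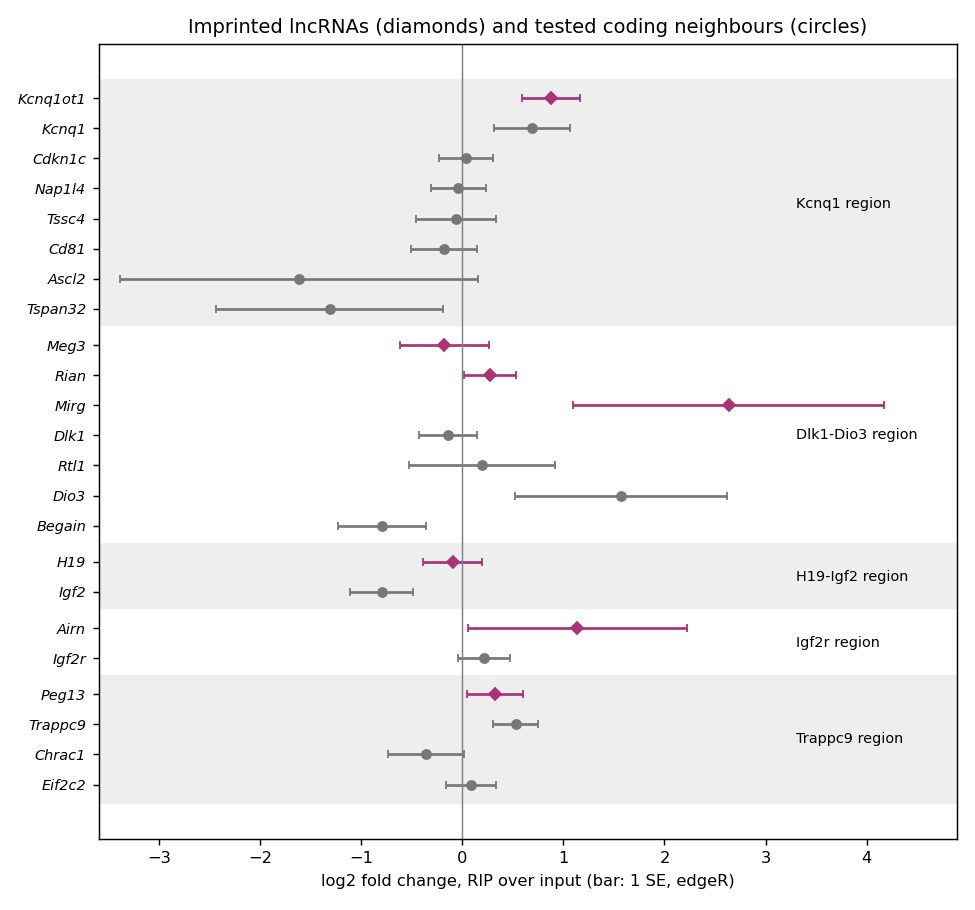
Log2 fold change of RIP over input with 1 standard error (edgeR) for the 7 imprinted lncRNAs (diamonds) and the 16 tested coding genes of their regions (circles). Kcnq1ot1 (0.88) and Kcnq1 (0.69) lie on the same side of 0, while Igf2 (-0.80) lies below H19 (-0.10).

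Of the coding genes of these 5 regions, 16 were tested and 0 passed edgeR's adjusted p of 0.05, while Trappc9 (higher) and Igf2 (lower) had an unadjusted p under 0.05, beside the 3.15% and 4.28% of all genes given above. Their median log2 fold change was -0.05, with 7 above 0 and 9 below, and 0.06 without input 1. Dio3, the deiodinase gene at the end of the Dlk1-Dio3 region, had 0, 0.764, 2.15 and 3.68 CPM in input 1 to 4 and 6.21, 5.19, 4.17 and 4.33 CPM in RIP 1 to 4, with no overlap, as for 2.77% of all genes (log2 1.57 ± 1.05, edgeR adjusted p = 0.751). Dio3 lay outside the naming rule and was chosen after its values were seen. With 0 counts in input 1, it passed the filter on low counts only with RIP libraries. Begain, beside Dlk1 in the same region, had 15.9 ± 6.6 CPM (input) against 9.14 ± 2.89 CPM (RIP) (log2 -0.80 ± 0.44). Imprinted genes of other regions had a median of -0.27, with 3 of 22 above 0 and 19 below. It was -0.12 without input 3 and -0.45 without input 2. Of these, 0 passed edgeR's adjusted p of 0.05, and Ube3a, Dcn and Commd1 were lower and 0 higher at an unadjusted p under 0.05, beside 4.28% and 3.15% of all genes. Among them the ubiquitin ligase gene Ube3a had 101 ± 28 CPM (input) against 53.9 ± 10.3 CPM (RIP) without overlap, as for 2.52% of all genes on the lower side (log2 -0.91 ± 0.27, edgeR adjusted p = 0.554).

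Genes for the proteins of the nuclear bodies that Neat1 and Malat1 mark had medians just below 0, which turned without input 3 (0.04 and 0.05). The shares of all genes with an unadjusted p under 0.05, 3.15% higher and 4.28% lower, apply to each count here. The paraspeckle list had a median of -0.14 over 22 genes, 7 above 0 and 15 below, and 0 passed edgeR's adjusted p of 0.05, while unadjusted p was under 0.05 for 0 on the higher side and 1 on the lower. That gene was Rbm3, a cold-inducible RNA-binding protein, at 202 ± 67 and 130 ± 12 CPM (log2 -0.64 ± 0.26, adjusted p = 0.623). Of 21 nuclear speckle genes and factors that process the Malat1 end, 6 lay above 0 and 15 below, with a median of -0.11. Of these, 0 passed by edgeR, and the unadjusted p was under 0.05 for 0 on the higher side and for 1 on the lower, the splicing factor gene Srsf10 (log2 -0.53 ± 0.24, adjusted p = 0.663). The groups did not overlap for Srsf10, as for 2.52% of all genes on the lower side. Genes that set or keep imprints had a median of -0.13 over 13 tested, 0 of which passed by edgeR, and the unadjusted p was under 0.05 for 1 in each direction. Their median was 0.07 without input 4. The maintenance methylation factor gene Uhrf1 was at 347 ± 59 and 526 ± 51 CPM (0.60 ± 0.22, adjusted p = 0.622) without overlap, as for 2.77% of all genes. The insulator gene Ctcf was at 74.8 ± 27.9 and 47.1 ± 12.0 CPM (-0.67 ± 0.31, adjusted p = 0.670).

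Other lncRNAs were listed by where their product is known to act. Of 8 other nuclear or chromatin lncRNA genes tested, 6 lay above 0 and 2 below, with a median of 0.19. That median was 0.04 without input 1, 0.07 without RIP 4, 0.39 without input 3 and -0.08 within libraries 3 and 4. Xist, which coats the inactive X chromosome, had 713 ± 220 CPM (input) against 917 ± 299 CPM (RIP) (log2 0.36 ± 0.29, edgeR adjusted p = 0.799). Tug1 was at 66.1 ± 22.8 and 33.3 ± 19.1 CPM (-0.99 ± 0.40, adjusted p = 0.622). Among 17 lncRNA genes with a largely cytoplasmic product or a small nucleolar RNA inside, 5 lay above 0 and 12 below, with a median of -0.35. That median was -0.17 without input 1 and -0.50 without input 2. With limma voom it was -0.04, where that of the nuclear list was 0.455. Gas5, a host of small nucleolar RNAs, was at 196 ± 86.5 and 364 ± 141 CPM (0.89 ± 0.36, adjusted p = 0.622). Neither list had a gene that passed edgeR's adjusted p of 0.05, and the unadjusted p was under 0.05 for Tug1 alone in the first and for Gas5 alone in the second.

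The order of the members was read per kilobase of annotated gene span, which includes introns and so understates spliced RNAs. In input it ran from Malat1 (1221 ± 1005 CPM per kb) through H19 (133 ± 39), Peg13 (18.98 ± 5.75), Neat1 (4.58 ± 2.73), Kcnq1ot1 (3.39 ± 1.43), Meg3 (2.38 ± 1.47) and Rian (0.666 ± 0.094) to Airn (0.0204 ± 0.0266) and Mirg (0.0165 ± 0.0207). The ranges over the 4 input libraries overlapped between Neat1 and Kcnq1ot1, between Kcnq1ot1 and Meg3, between Meg3 and Rian, and between Airn and Mirg. In RIP, Kcnq1ot1 (6.24 ± 1.34 CPM per kb) stood before Neat1 (4.91 ± 0.58) and Mirg (0.106 ± 0.042) before Airn (0.0455 ± 0.0215), and these were the pairs of neighbours whose ranges overlapped there.

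Spread was wider in input than in RIP. The coefficient of variation was higher in input for 8 of the 9 members, H19 being the exception, and for 72.6% of all genes tested. Neat1 varied by 59.7% in input and 11.7% in RIP, Meg3 by 61.6% and 19.8%, and Malat1 by 82.3% and 39.1%, where the medians over all genes tested were 42.7% and 30.6%. Input 2 was the lowest input library for 6 members and input 4 the highest for 6. Between the numbered pairs, 7 members had a higher mean in input 3 and 4 than in input 1 and 2, and 5 did so in RIP. Input 1 and 2 were also the shallowest libraries, and the part of depth in these values was not tested.

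**Figure D4:**
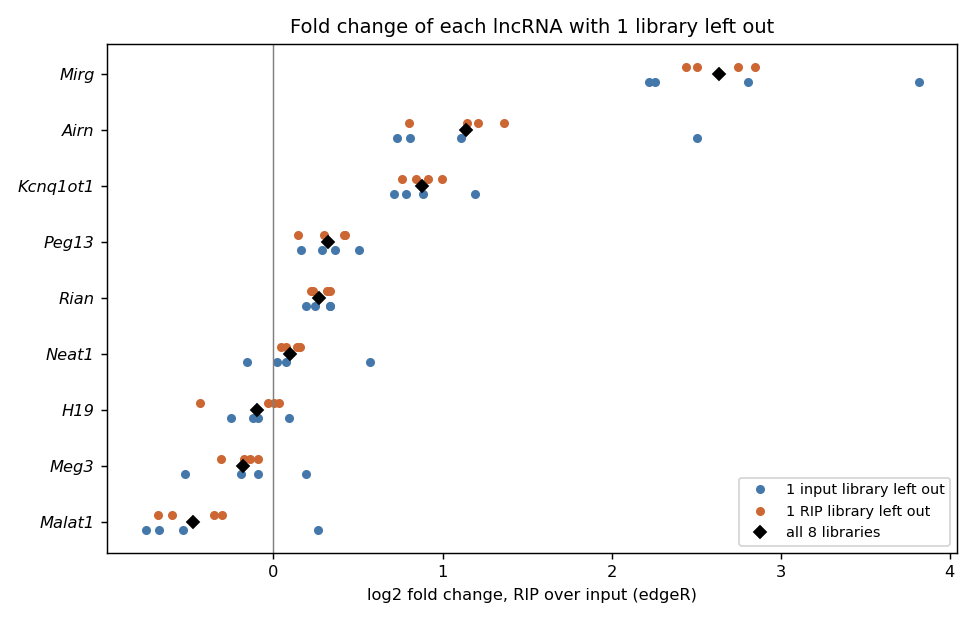
Log2 fold change of RIP over input (edgeR) for each lncRNA with all 8 libraries (black diamonds) and with 1 input (blue) or 1 RIP (orange) library left out. Malat1, Meg3, H19 and Neat1 have points on both sides of 0, and Kcnq1ot1 stays between 0.71 and 1.20.

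The genes most like each member across libraries were named by Pearson's r of log2 CPM over the 8 libraries, which share depth and grouping. Malat1 was most like Ctdspl2 and Ythdc1 (r = 0.99 each), of which Ythdc1 encodes a nuclear reader of N6-methyladenosine. Neat1 was most like Rad54l2 and Ube4b (0.98 each), and Kcnq1ot1 like Iqsec1 (0.98) and Galntl6 (0.97). Meg3 was most like Magi1 (0.99) and Ndel1 (0.98), and Rian like Exd1 (0.96) and D14Ertd668e (0.95). H19 was most like Cstb (0.98) and Oxa1l (0.95), Airn like Ephb1 (0.99) and Lrrtm2 (0.98), and Peg13 like Gtpbp6 and Irf2bp1 (0.99 each). The minimum mean of 1 CPM applied to the members alone and left out Mirg. Galntl6 and D14Ertd668e were themselves low in input, at 0.157 and 0.399 CPM. With 14667 genes to choose from and 8 libraries, values of this size describe the libraries and carry no test.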

How the data were processed

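The authors deposited expected counts, estimated per gene, in 1 table of 23107 genes and 8 libraries. At most 1.85% of a library's values were not whole (tolerance 1e-09), and values were rounded before testing. Per the labels' protocols, precipitation used the Magna RIP kit, followed by a stranded total RNA library kit. The submitters' processing notes name mm10. Aligner, counter, annotation and the strand setting were not given in the sources used here.

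RIP was compared with input over all 8 libraries in R 4.3.3 with edgeR 4.0.16 (TMM, filterByExpr with minimum count 10 and minimum total 15, robust quasi-likelihood fit, Benjamini-Hochberg over 14667 genes, threshold 0.05). Standard errors are the log2 fold change over the square root of F. CPM are TMM-scaled. Ratios used log2 with 0.5 added to each count and exact permutation tests (SciPy 1.17.1). DESeq2 1.42.0, limma 3.58.1 and the other alternatives are in the closing section. The fit was tested on simulated data. Symbols were matched to RefSeq (GRCm38.p6), 20546 by symbol, 2291 by synonym and 270 not. The members and lists were chosen with earlier results of these data known. The rule named the members, up to 4 genes with the lowest p of each list, for each member with a mean of at least 1 CPM the 2 tested genes most like it, and overlapping coding genes.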

Additional observations from a re-analysis of the deposited data

Results flagged for a closer look

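H19 in RIP 1, at 529 CPM, stood apart from the other RIP libraries (235 to 279 CPM), with a gap of 0.852 of the group's range. Without RIP 1 the log2 fold change of H19 was -0.43 ± 0.26, beside -0.10 ± 0.30 with all libraries. Of the 18 groups of 4 libraries looked at, 1 was set apart in this way, and chance sets apart about 1 in 20.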

How the results depend on the processing

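The 6 genes lower and 0 higher in RIP became 43 and 13 with DESeq2, 42 and 13 with the replicate block, 43 and 12 with libraries 1 and 2 against 3 and 4 as a block, and 24 and 3 with libraries 1 and 2 alone. Leaving libraries out gave 1 to 16 lower (16 without RIP 1, 15 without input 3) and 0 to 1 higher. With the replicate block 1 member was called, Kcnq1ot1 (0.94 ± 0.21, edgeR adjusted p = 0.0453; 0.0886% of all genes were called higher there), whose adjusted p ran from 0.0453 to 0.9998 over its alternatives. The labels do not say whether same-numbered libraries are paired, and the main fit did not take the shared numbers as a pairing. Deviations of same-numbered libraries correlated at 0.162, 0.091, 0.178 and 0.118, each above 0. These correlations do not settle whether the libraries are paired. Input 2, 3 and 4 each correlated best with another number, namely RIP 1 (0.152), RIP 4 (0.269) and RIP 3 (0.14). Each of these lay in the same set of libraries, 1 and 2 or 3 and 4. Between those sets every correlation was negative (-0.252 to -0.043), and within them all were positive except input 1 with RIP 2 (-0.003). The main fit leaves this structure out. With these sets as a block, Kcnq1ot1 was 0.88 ± 0.22 (edgeR adjusted p = 0.0708) and 0 members were called. The sign of 4 members turned, and the cause was not tested. Malat1 was 0.04 within libraries 1 and 2 and -0.75 to 0.26 with libraries left out. Neat1 was -0.17 within libraries 3 and 4 and -0.16 to 0.57 with libraries left out. Meg3 was 0.012 with limma voom, 0.10 with the replicate block, 0.45 within libraries 1 and 2 and -0.52 to 0.23 with libraries left out. H19 was -0.433 to 0.093 with libraries left out. The median of the epithelium markers, 0.34 with all libraries, was -0.02 within libraries 3 and 4 and -0.12 to 0.46 with libraries left out. That of the immune markers, 0.36 with all libraries, was 1.57 with limma voom and 0.02 to 0.75 with libraries left out. Kcnq1ot1, Rian, Mirg, Airn and Peg13 kept their sign in every alternative that gave a value. Malat1 has no value without the 10 largest genes, and Mirg none under the stricter filter. Counts of Mirg and Airn in input limit what their fold changes can show.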
